A study of Mus musculus with 21 samples.

Results

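Rpph1, Rmrp, Rn45s, Malat1, Neat1, Meg3 and Rian are 7 noncoding RNAs with separate jobs in the nucleus, and all 7 were found by symbol among the 23587 and 22918 genes of the deposited tables. They were followed here through 21 total RNA libraries of sorted cells of the mouse main olfactory epithelium, the tissue that holds the olfactory sensory neurons (OSN). Every mouse carried a tetO transgene that needs the tTA activator: tetO-HyperTRIBE-mCherry (HT), an RNA-editing domain with a red marker, or tetO-Mex3a-HyperTRIBE-mCherry (MexHT), in which the RNA-binding protein Mex3a is joined to that domain. gg8-tTA together with OMP-tTA drove the transgene in 3 HT and 6 MexHT libraries of OSN and in 3 HT and 5 MexHT libraries of mCherry-negative cells, and gg8-tTA alone in 2 MexHT OSN and 2 MexHT mCherry-negative libraries. As background, Gng8 marks immature and OMP mature OSN. OSN here are the mCherry-positive cells, and the mCherry-negative cells of the same mouse are its internal control, so each control also carries the transgenes and holds whatever cells did not light up. No library came from a mouse without an editing construct. Age, strain and pooling of animals are not stated in the labels, and no gg8 library carried HT.

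By role they fall into pairs. Rpph1 is the catalytic RNA of RNase P, which trims the leader off precursor transfer RNAs, and Rmrp is its relative in RNase MRP, which cuts precursor ribosomal RNA. RNA polymerase III makes both, and both enzymes share most of their proteins. Rn45s is the ribosomal RNA precursor made by RNA polymerase I. Malat1 gathers in nuclear speckles next to splicing factors, and Neat1 is the scaffold of paraspeckles. They are neighbours on one chromosome, and RNase P cuts the 3' end of Malat1 and of the long form of Neat1. Meg3 and Rian are transcribed from the maternal copy of the imprinted Dlk1-Dio3 region, and Rian is the host of many small nucleolar RNAs and microRNAs.

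Recovered depth was 7529648 to 15358110 counts per library. Markers of OSN were also found outside the sort: 13 markers of mature OSN summed to 1207 to 15463 TPM (a level per length) in the mCherry-negative libraries of the gg8+OMP mice. Granulocyte markers (10 genes) summed to 160.0 to 462.4 TPM in gg8+OMP OSN and to 6399.6 to 16647 TPM in mCherry-negative cells. In these bulk samples, fewer cells of a type and less RNA per cell cannot be told apart. Macrophage markers (10 genes) summed to 1038 to 4668 TPM in HT OSN and to 219.4 to 457.7 TPM in MexHT OSN. Xist reached 1 TPM in 1 of 3 HT OSN and 6 of 6 MexHT OSN libraries, and the mean of 4 Y-linked genes did in 3 of 3 and 5 of 6. In mCherry-negative cells Xist did in 1 of 3 HT and 5 of 5 MexHT libraries and the Y-linked mean in 3 of 3 and 5 of 5. Most MexHT libraries thus held both kinds of transcript, and whether each library is 1 animal was not settled here. A mouse below means the OSN and control libraries of 1 replicate number, which the labels give as the same mouse. No gene of these marker lists was at 0 in all libraries of a group.

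The name abundant fitted 4 of the 7. Rpph1 ranked 1 to 4 among all genes by TPM in every library, Rn45s 1 to 6 and Rmrp 2 to 9, while Malat1 ranked 1 to 24 and stood among the first 10 in 14 of 21 libraries. Neat1 was a mid-level RNA, with ranks of 1664 to 9534 and 14.4 to 136.7 TPM. Meg3 (0.847 to 20.9 TPM) and Rian (0.550 to 26.2 TPM) were low, with 39 to 961 and 7 to 332 recovered counts per library. Meg3 and Rian are therefore described below as low RNAs, whose differences on the log2(TPM + 1) scale understate the change.

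Together the 7 RNAs made up 2.18% ± 0.12 of the TPM of a library (SD, n = 3) in HT OSN and 2.22% ± 0.14 (n = 3) in HT mCherry-negative cells. The share was 2.33% ± 0.27 (n = 6) in MexHT OSN and 2.41% ± 0.12 (n = 5) in MexHT mCherry-negative cells. In gg8 mice it was 2.34% and 1.64% in OSN and 2.09% and 2.37% in mCherry-negative cells. The ranges of the summed share overlapped between HT and MexHT OSN. Its parts were less alike: Rpph1 and Rmrp together were 0.933% ± 0.123 of TPM for HT OSN and 1.38% ± 0.28 for MexHT OSN, while the mean share of Malat1 was 0.581% ± 0.071 in HT OSN and 0.259% ± 0.057 in MexHT OSN. No test was made on the sums, since they are scores over chosen genes.

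The share depends on the unit, because TPM divides reads by length and Rpph1 (325 bases) and Rmrp (275 bases) are short. By recovered counts, Rpph1 and Rmrp together were 0.0819% to 0.197% of a library, while Rn45s (5833 bases in the tables) was 0.927% to 1.95% and Malat1 (6982 bases) 0.422% to 1.38%. The 7 RNAs summed to 2.64% ± 0.11 of counts in HT OSN and to 2.07% ± 0.12 in MexHT OSN. On that scale the highest MexHT OSN library (2.22%) was below the lowest HT OSN library (2.55%), whereas on the TPM scale both groups overlapped.

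**Figure D1:**
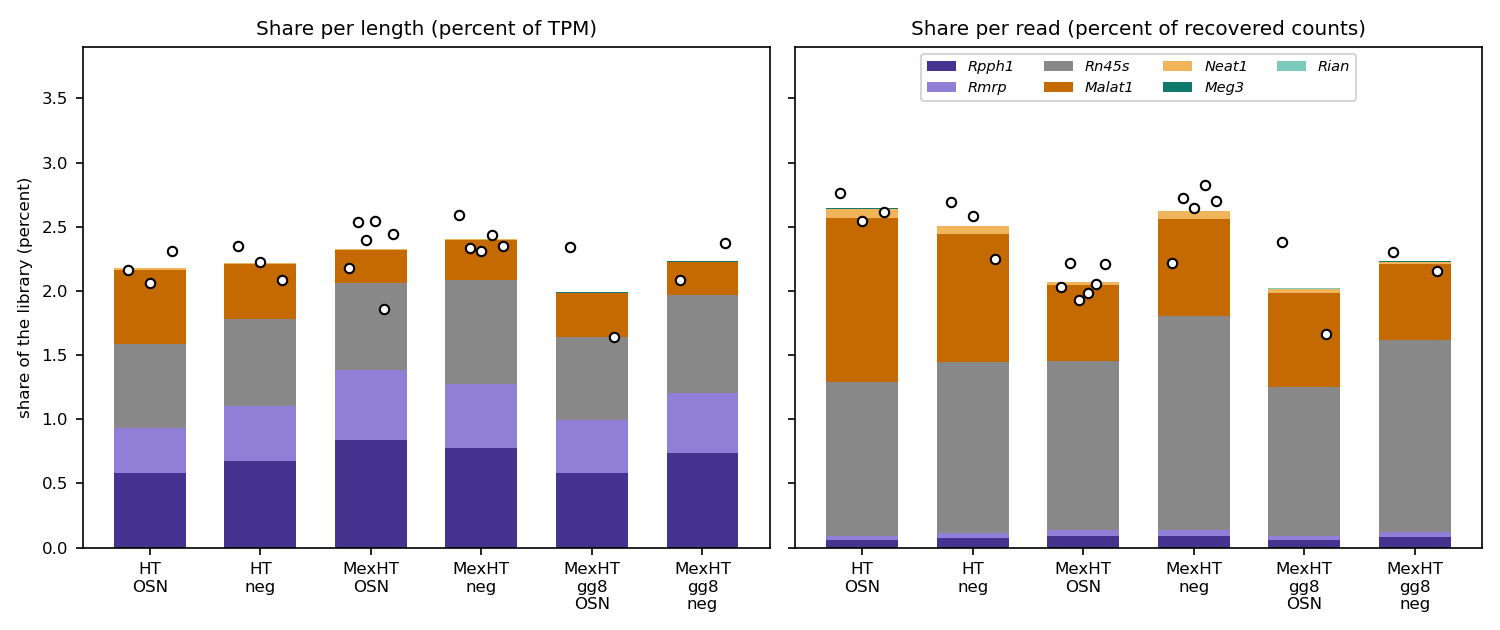
Mean share of a library taken by each of the 7 noncoding RNAs in the 6 groups, as percent of TPM (left) and percent of recovered counts (right); stacked bars are group means of each RNA and open points are the sum in single libraries. The short Rpph1 and Rmrp fill much of the TPM bars and little of the count bars, where Rn45s and Malat1 hold nearly all of the sum.

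Differences were tested with limma on log2(TPM + 1) over all genes of a comparison, and a gene is called at an adjusted p under 0.05. All 7 RNAs passed the filter of a mean of 1 TPM in all 6 comparisons. Between MexHT OSN and HT OSN, 5 of the 7 were called, 3 higher and 2 lower in MexHT OSN, where 36.8% of the 16067 genes tested were called, 19.9% higher and 16.8% lower. Between mCherry-negative cells of both constructs, 0 of 7 were called, where limma called 0% of 16860 genes and 3465 genes had an unadjusted p under 0.05. The groups overlapped there for all 7 RNAs, and 8.71% of genes did not overlap. OSN against mCherry-negative cells gave 1 call of 7 in MexHT mice, on the lower side, where 63.4% of 16522 genes were called, 35.8% higher and 27.6% lower. It gave 2 calls of 7 in HT mice, both lower, where 11.3% of 17027 were called, 2.18% higher and 9.11% lower. In gg8 mice 0 of 7 were called by limma, with 1 at an unadjusted p under 0.05, where 8.32% of 16490 genes were called, 1.12% higher and 7.2% lower. As to enrichment in neurons, these fits called none of the 7 on the OSN side. They held no term for the mouse, although the labels pair both fractions of a mouse. The exception among the alternatives was Neat1 in HT mice with the mouse as a block, given below. In MexHT mice the scaling matters for the whole table: the median of all genes moved from 0.16 to 0.03 with median-of-ratios scaling, and the split of calls from 5909 higher and 4558 lower to 4875 higher and 5127 lower.

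**Figure D2:**
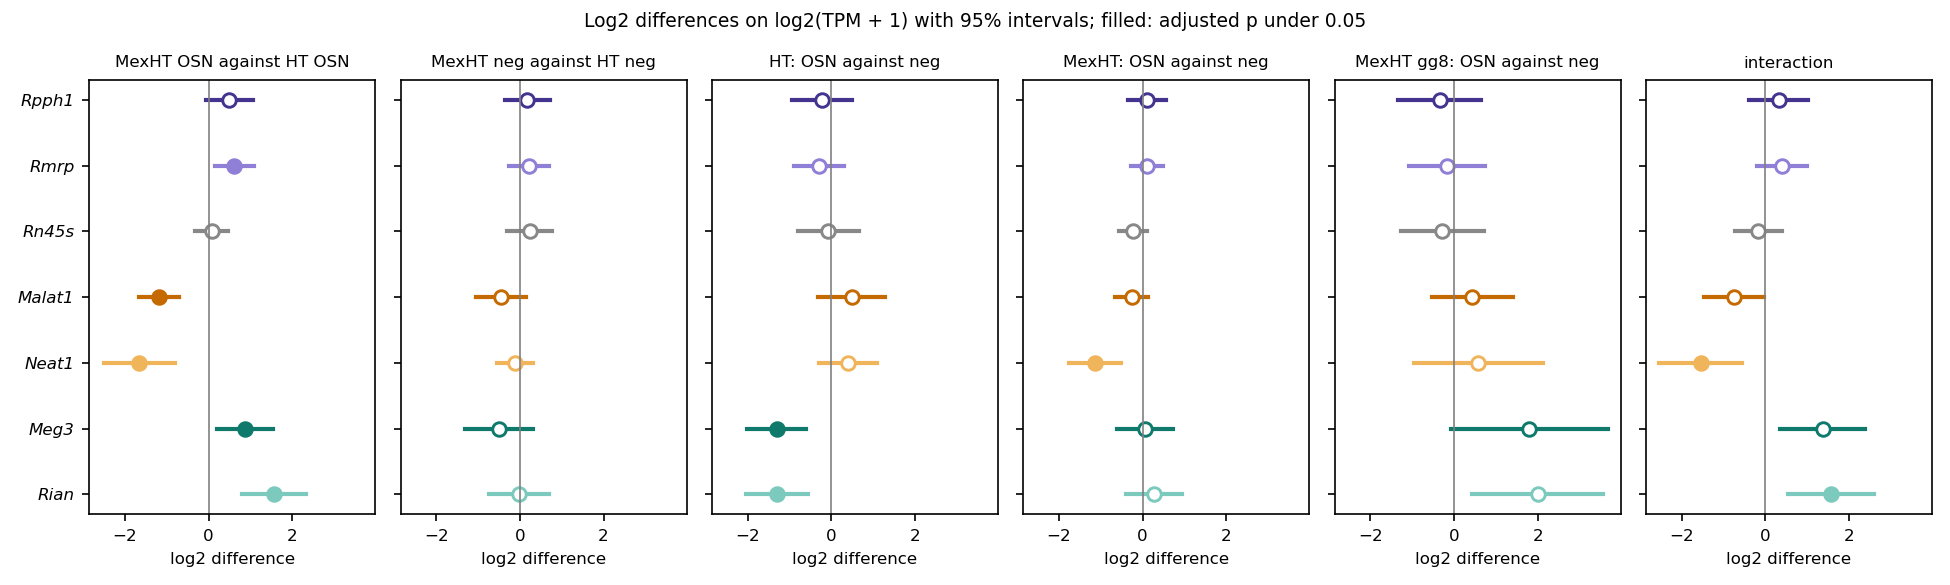
Log2 differences of the 7 noncoding RNAs with 95% intervals in the 6 comparisons, from limma on log2(TPM + 1); filled points have an adjusted p under 0.05. In OSN of MexHT against HT mice Malat1 and Neat1 lie left of 0 and Rmrp, Meg3 and Rian right of it; in mCherry-negative cells no point is filled.

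Rpph1 and Rmrp were the most alike of the set, and their sequences are shown because these RNAs are relatives with little sequence in common. The entries of GENCODE M21, built on mm10, were read 5' to 3'. Rpph1 (chr14:50807468-50807767, minus strand) is given by its first 300 of 319 bases and Rmrp (chr4:43492788-43493058, minus strand) by all 271, with capitals for runs of at least 8 bases found in both:
Rpph1: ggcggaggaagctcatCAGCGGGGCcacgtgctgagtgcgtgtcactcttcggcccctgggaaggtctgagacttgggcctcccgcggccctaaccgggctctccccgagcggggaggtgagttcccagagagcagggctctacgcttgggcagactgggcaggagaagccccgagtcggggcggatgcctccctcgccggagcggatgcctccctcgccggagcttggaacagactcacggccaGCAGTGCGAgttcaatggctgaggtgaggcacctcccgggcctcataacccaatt
Rmrp: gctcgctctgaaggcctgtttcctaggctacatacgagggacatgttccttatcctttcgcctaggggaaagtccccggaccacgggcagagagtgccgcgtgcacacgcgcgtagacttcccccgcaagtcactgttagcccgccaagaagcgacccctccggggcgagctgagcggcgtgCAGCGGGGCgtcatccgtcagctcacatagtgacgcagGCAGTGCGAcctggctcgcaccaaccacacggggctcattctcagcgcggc
Only 2 such runs were found, each of 9 bases. Both RNAs are rich in G and C, at 67.1% and 64.2%. Genes like Rpph1 lie elsewhere: Rprl1, Rprl2 and Rprl3, named in RefSeq as RNase P RNA-like, stood at 40.6 to 138.6, 45.1 to 204.9 and 483.7 to 871.7 TPM in the gg8+OMP libraries, and if the authors' counting split reads among them the level of Rpph1 is uncertain.

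Rpph1 had 5213, 5516 and 6791 TPM in HT OSN, and 5224 at the lowest, 9142 at the median and 10180.3 at the highest in MexHT OSN. In 5 of 6 MexHT OSN libraries it was above every HT OSN library, and replicate 5 was the exception. The difference of 0.50 on the log2 scale (SE 0.25, limma adjusted p 0.145) was not called. Without MexHT OSN replicate 5 it was 0.63 and passed (adjusted p 0.0325).

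Rmrp followed the same order. It had 3389, 3112 and 3957 TPM in HT OSN and ran from 3759.9 over a median of 5797 to 6246 TPM in MexHT OSN, again with replicate 5 alone inside the HT range. Rmrp rose by 0.62 on the log2 scale (SE 0.21, limma adjusted p 0.0415), a 1.54-fold change. The call held in 3 of 9 fits that left out a library (without MexHT OSN replicate 1 or 5 or HT OSN replicate 3; adjusted p 0.0100 to 0.145 over the 9), and median-of-ratios scaling gave 0.104.

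In mCherry-negative cells Rpph1 had 7056, 6635 and 6565 TPM in HT mice and 10829, 6815, 6927, 7332 and 6875 TPM in MexHT mice. Rmrp had 4728, 3748 and 4369 TPM in HT mice and 6497, 4263, 4782, 4695 and 4777 TPM in MexHT mice. Replicate 1 of MexHT stood apart for both RNAs, and the other libraries lay close to those of HT. Neither RNA was called there (0.18 and 0.22 on the log2 scale, limma adjusted p 0.678 and 0.556), and the test of the difference between both fractions gave 0.32 and 0.40 (limma adjusted p 0.573 and 0.379).

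Mice of one group did not all go one way. Rmrp was lower in OSN than in mCherry-negative cells in 3 of 3 HT mice, by 0.14 to 0.48 on the log2 scale, and higher in 3 of 5 MexHT mice. Rpph1 was lower in 2 of 3 HT mice and higher in 3 of 5 MexHT mice, and no fit called either RNA between fractions. In gg8 mice Rpph1 had 6772 and 4816 TPM in OSN and 6066 and 8662 TPM in mCherry-negative cells, a split in which mouse 1 and mouse 2 went opposite ways.

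The ratio of Rpph1 to Rmrp within a library needs no scaling between libraries. It was 1.31 to 1.77 in all 21 libraries, although Rpph1 itself varied 2.25-fold and Rmrp 2.09-fold. Over the 17 gg8+OMP libraries, which share groups and mice, the Pearson correlation of log2 levels was 0.947. Among 13338 other genes averaging 5 TPM or more, the closest to Rpph1 were Scarna13 (r 0.911), Ndufa6 (0.908) and Scarna6 (0.898), and the closest to Rmrp were Scarna6 (0.941), Myl6 (0.895) and Ndufa6 (0.892). Scarna6 and Scarna13 are short guide RNAs of Cajal bodies, and Ndufa6 is a subunit of mitochondrial complex I.

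The protein partners of both enzymes were examined as a list of 11 genes. In MexHT OSN against HT OSN 8 of 11 were higher and 0 lower, beside 19.9% and 16.8% of all genes (median 0.54 against 0.03 over all genes tested). Pop5, a small protein of both enzymes, had 72.1 ± 5.9 TPM in HT OSN (n = 3) and 191.3 ± 25.2 TPM in MexHT OSN (n = 6), a log2 difference of 1.39 (SE 0.12, limma adjusted p 9.58e-05). Pop4 rose from 28.0 ± 7.5 to 58.9 ± 21.6 TPM (1.00, limma adjusted p 0.0190). Against mCherry-negative cells of MexHT mice 7 of 11 were higher in OSN, where 35.8% of all genes were, Pop5 at 1.33 and Rpp38 at 1.08 (limma adjusted p 8.2e-07 and 0.000381), and in HT mice 0 of 10 tested were called, where 2.18% of all genes were higher and 9.11% lower. The difference between constructs differed between fractions for Pop5 (1.22, limma adjusted p 0.000959) and Rpp21 (0.71, 0.0348). Rpph1 and Rmrp did not pass the test in the comparison where these 7 protein genes did.

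Of the 23 genes for RNA polymerase III and the factors of its upstream promoters, 6 were higher and 2 lower in MexHT OSN than in HT OSN (median 0.27). The higher share was near the 19.9% of all genes, and the lower share was below their 16.8%. Polr3d, a polymerase subunit, rose by 1.01 (limma adjusted p 0.000604) and Brf2 by 0.68 (0.0123), while Polr3k fell by 0.56 (0.0126) and Zfp143 by 0.47 (0.0408). Of 11 other short structured noncoding RNAs in the table, 2 were called higher, a share near that of all genes: Terc, the RNA template of telomerase, and Rprl1. Terc had 9.78 ± 1.64 TPM with HT and 33.2 ± 12.4 with MexHT (log2 difference 1.60, limma adjusted p 0.00208). Terc was also the 1 of 10 called lower in OSN than in mCherry-negative cells of HT mice (fell by 1.30, limma adjusted p 0.0153). That share was near the 9.11% of all genes called lower there. Of the RNA polymerase III genes, 15 of 23 were higher and 0 lower in OSN than in mCherry-negative cells of MexHT mice. Of all genes 35.8% and 27.6% were, and with median-of-ratios scaling the list had 12 higher and 2 lower.

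Rn45s had the narrowest range of the set, 1.89-fold over the 21 libraries. Its level was 6606, 5706 and 7265 TPM in HT OSN and 6492 to 7159 TPM in MexHT OSN, so one group lay within the other (log2 difference 0.07, limma adjusted p 0.777). In mCherry-negative cells it had 6969.8, 6461 and 6958 TPM in HT mice and 5784, 8375, 7840.1, 9145 and 9457 TPM in MexHT mice. There 4 of 5 MexHT libraries were above and 1 below all HT libraries (0.24, limma adjusted p 0.570). It was lower in OSN in 4 of 5 MexHT mice, and the difference (-0.23, limma adjusted p 0.216) passed without MexHT mCherry-negative replicate 1 (adjusted p 0.0286) and with voom on recovered counts (0.0196). Ribosomal RNA genes are repeated, and the reference tables used here gave no position or sequence for Rn45s. How the authors counted reads of repeats is not given in the sources used here. Whether reads of this 5833-base entry came from the precursor or from mature ribosomal RNA was not tested.

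Of 28 tested genes of RNA polymerase I and of precursor processing, 16 were higher and 0 lower in MexHT OSN than in HT OSN, beside 19.9% and 16.8% of all genes (median 0.49), among them Taf1d (0.94, limma adjusted p 0.00209) and Twistnb (0.85, 0.0220) of the transcription machinery. Against mCherry-negative cells of MexHT mice 3 were higher and 6 lower, beside 35.8% and 27.6% of all genes, with the nucleolar protein Npm1 down by 0.87 (limma adjusted p 0.000185). The genes closest to Rn45s over the 17 gg8+OMP libraries were Rpa1 (r 0.853), Ankrd13a (0.843) and Srsf2 (0.839), and its correlation with the other 6 RNAs ran from -0.275 to 0.103.

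**Figure D3:**
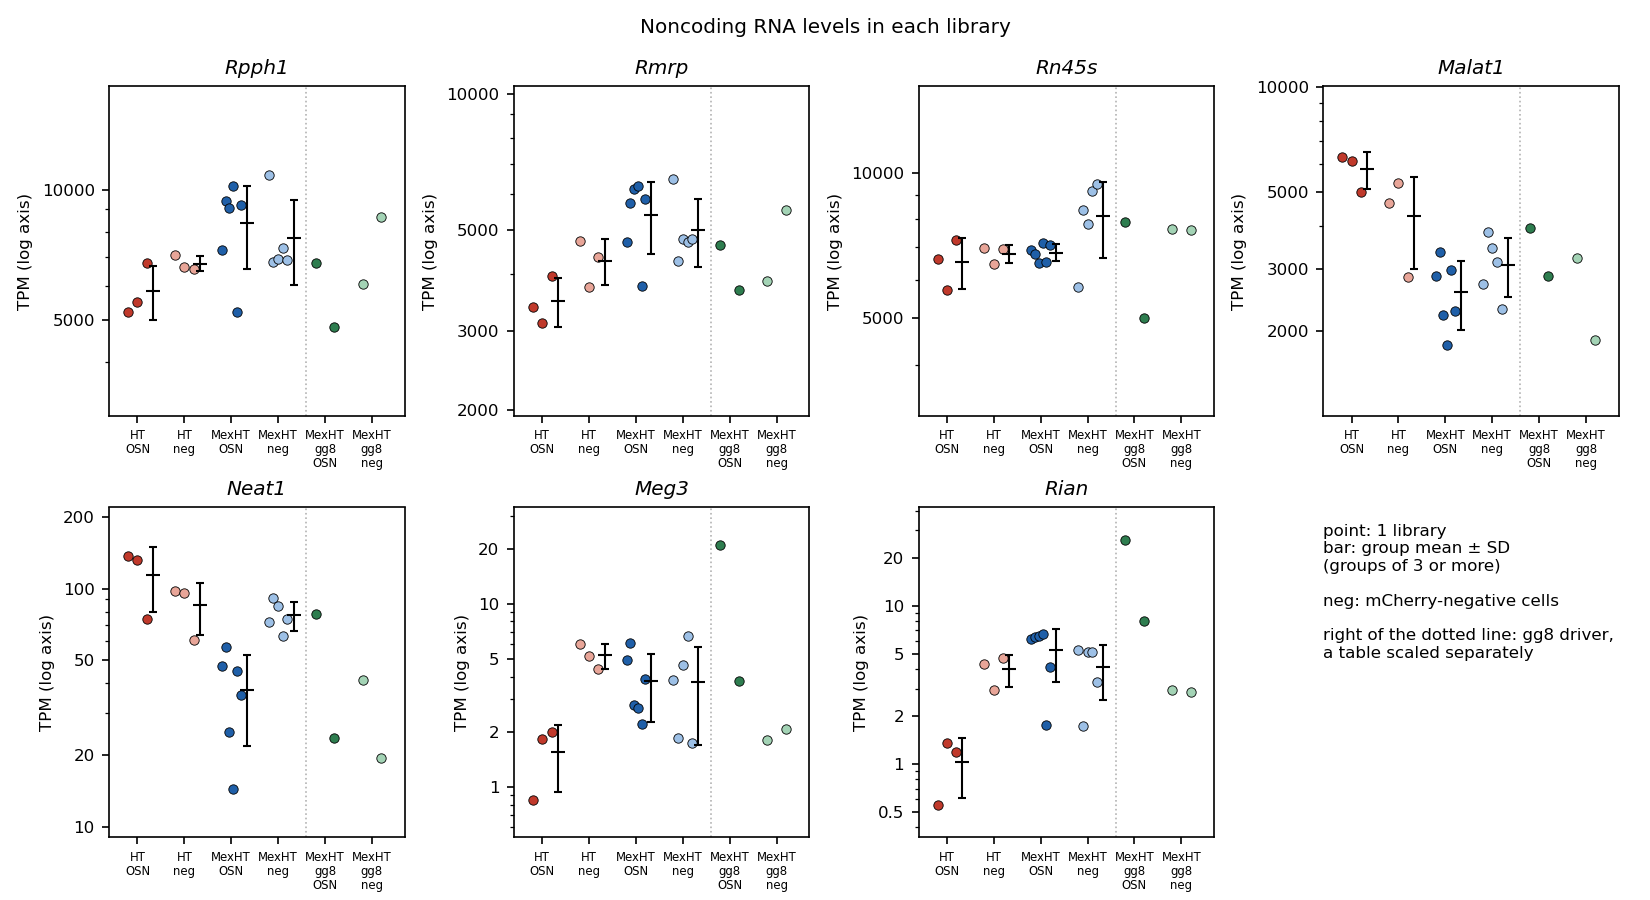
TPM of the 7 noncoding RNAs in every library (points, log axis, own scale per panel), by group, with group mean ± SD for groups of 3 or more; the gg8 libraries right of the dotted line come from a table scaled separately. Malat1 and Neat1 sit lower in MexHT OSN than in HT OSN without overlap, Meg3 and Rian higher without overlap, and the points of Rn45s stay within a narrow band.

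Malat1 and Neat1 lie 22.0 kb apart on the minus strand of chromosome 19, at chr19:5795690-5802672 and chr19:5824708-5845480 (RefSeq, GRCm38.p6, the build mm10). Their 3' ends are shown because RNase P, the enzyme of Rpph1, makes both. In the Malat1 entry of GENCODE M21 (chr19:5795914-5796093) the first capitals are the longest run shared with the last 400 bases of Neat1, 16 bases, and the second capitals are mascRNA, the 58-base transfer RNA-like piece that RNase P releases. In Neat1 (chr19:5824731-5824826) capitals mark the shared run:
Malat1: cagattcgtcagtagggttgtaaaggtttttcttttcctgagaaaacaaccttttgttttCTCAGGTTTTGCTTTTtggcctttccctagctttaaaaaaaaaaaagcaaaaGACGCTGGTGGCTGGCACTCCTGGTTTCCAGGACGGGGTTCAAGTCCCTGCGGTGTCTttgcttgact
Neat1: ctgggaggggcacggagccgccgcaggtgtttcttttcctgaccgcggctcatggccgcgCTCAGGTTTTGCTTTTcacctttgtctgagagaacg
As background, the A-rich stretch just before mascRNA lies at the end of mature Malat1. mascRNA has no row of its own in the tables, so its level and the share of cut Malat1 were not measured here.

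Malat1 was lower in OSN of MexHT mice than of HT mice. It had 6293, 6153 and 4997 TPM in HT OSN, and 1819.6 at the lowest, 2571 at the median and 3352 at the highest in MexHT OSN. All 6 MexHT OSN libraries were below all HT OSN libraries, as they were for Neat1. The groups did not overlap for 4 of the 7 RNAs in this comparison, 2 higher (Meg3 and Rian) and 2 lower, where 38.4% of genes did not overlap, 21.5% higher and 16.9% lower. Malat1 fell by 1.19 on the log2 scale (SE 0.22, limma adjusted p 0.00254), which is 2.28-fold.

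Neat1, the paraspeckle scaffold, was lower there too. It had 136.7, 131.5 and 74.2 TPM in HT OSN and 14.4 to 56.6 TPM in MexHT OSN, with a median of 40.4. Its log2 difference was -1.66 (SE 0.38, limma adjusted p 0.00791), or 3.16-fold lower in MexHT OSN. Replicate 3 was the lowest of the HT OSN libraries for both RNAs, and replicate 4 the lowest of MexHT OSN.

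Both calls held without any single library (adjusted p 0.00243 to 0.0152 for Malat1 and 0.00637 to 0.0410 for Neat1). With the Xist level as a covariate the sizes were -1.24 and -1.84 and neither passed (adjusted p 0.128 and 0.172), and then 329 genes in all were called. Xist had 0.126 to 60.3 TPM in HT OSN and 58.4 to 139.8 TPM in MexHT OSN. The covariate thus largely follows the construct, and that fit cannot tell Xist and construct apart. The part of the difference in Xist between the groups in these results was not tested further. Macrophage markers, higher in HT OSN, were highest in HT OSN replicate 3 at 4668 TPM, the library with the least Malat1 and Neat1 of that group. Mature OSN markers summed to 13016 to 19247 TPM in HT OSN and 3753 to 8965 TPM in MexHT OSN, and immature markers to 4129.7 to 4404 and 6783 to 7828 TPM. The part of these cells in the difference was not tested.

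In mCherry-negative cells the construct made no called difference. Malat1 had 4659.9, 5286 and 2849 TPM in HT mice and 2727, 3829.9, 3439.7, 3137 and 2301 TPM in MexHT mice (-0.44, limma adjusted p 0.343). Neat1 had 97.9, 96.1 and 60.8 TPM in HT mice and 72.3, 91.4, 84.2, 63.5 and 74.2 TPM in MexHT mice, inside the HT range (-0.12, limma adjusted p 0.733). The test of the difference between fractions called Neat1 (-1.54, SE 0.47, limma adjusted p 0.0417), where 12.4% of 16785 genes were called, 7.05% higher and 5.37% lower. With Rian, below, 2 of the 7 were called. Malat1 was not called (-0.75, SE 0.34, limma adjusted p 0.158). The call of Neat1 held in 5 of 17 fits that left out a library (MexHT OSN replicate 1, 2, 4 or 5 or HT OSN replicate 3). Over the 17 the value ran from -1.83 to -1.31 and the adjusted p from 0.0271 to 0.106.

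Taken mouse by mouse, the direction of the difference between fractions for Neat1 varied between groups of mice. In MexHT gg8+OMP mice Neat1 was lower in OSN than in mCherry-negative cells in 5 of 5, by 0.61, 0.68, 1.71, 2.06 and 0.71 on the log2 scale for mice 1 to 5. In HT mice it was higher in OSN in 3 of 3 (0.48, 0.45 and 0.28) and so it was in 2 of 2 gg8 mice (0.90 and 0.27), which carry MexHT as well. The gg8 mice had another driver and a table scaled separately, and their control cells differed. Mature OSN markers summed to 11214 to 19303 TPM in those controls and to 1207 to 10067 TPM in MexHT gg8+OMP controls. The part of driver and control cells was not tested. Over libraries, Neat1 fell by 1.14 in MexHT OSN against mCherry-negative cells (SE 0.29, limma adjusted p 0.00393), with no overlap of the groups, where 43.1% of genes did not overlap, 19.6% on the lower side. In HT mice the difference was 0.40 (SE 0.29, limma adjusted p 0.347), and with the mouse as a block it was called (adjusted p 0.0273). That block raised the genes called in HT mice from 1923 to 4967.

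Malat1 was higher in OSN in 3 of 3 HT mice (0.43, 0.22 and 0.81) and in 2 of 2 gg8 mice (0.29 and 0.60). In MexHT gg8+OMP mice it was higher in 2 of 5, with values from -0.79 to 0.38. None of these 3 comparisons called it (limma adjusted p 0.337, 0.475 and 0.234). The gg8 libraries had 3951 and 2859 TPM of Malat1 in OSN and 3240.0 and 1883 TPM in mCherry-negative cells, so mouse 1 was above mouse 2 in both fractions, as it was for Neat1 (78.0 and 23.6 TPM in OSN and 41.4 and 19.4 TPM in mCherry-negative cells).

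**Figure D4:**
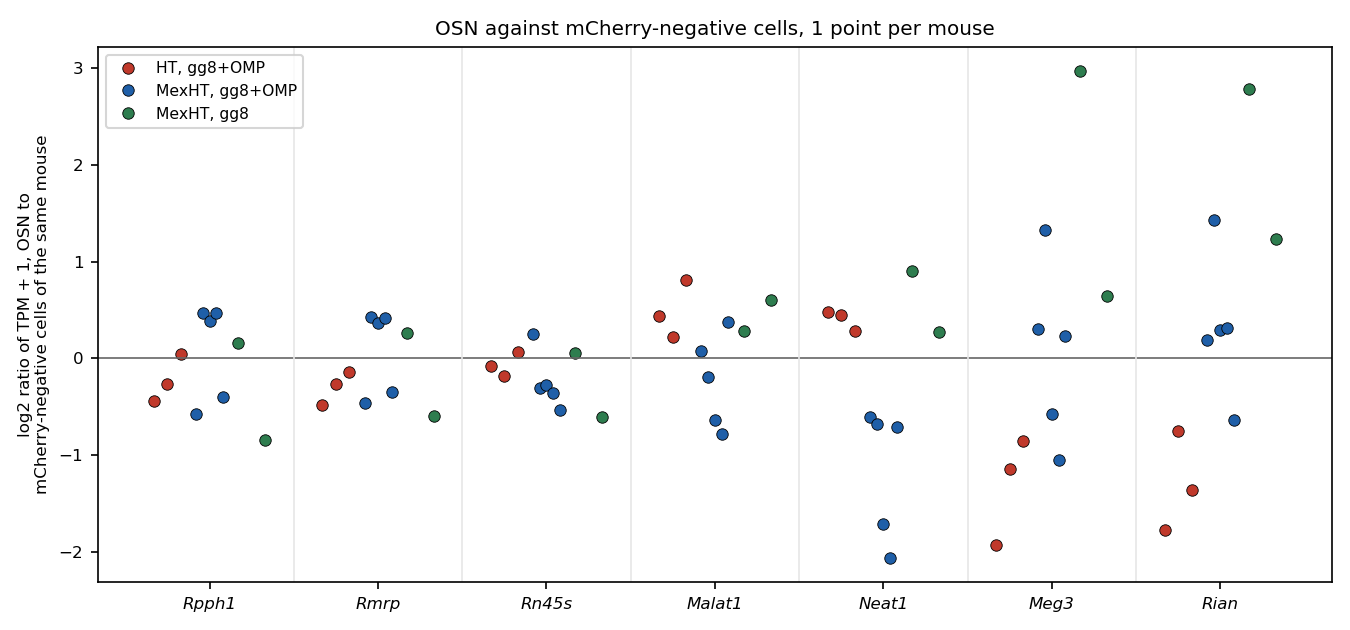
Log2 ratio of TPM + 1 in OSN to that in the mCherry-negative cells of the same mouse, 1 point per mouse (3 HT and 5 MexHT with both drivers, 2 MexHT with gg8), for the 7 noncoding RNAs. Neat1 lies below 0 in 5 of 5 MexHT gg8+OMP mice and above 0 in 3 of 3 HT and 2 of 2 MexHT gg8 mice; Meg3 and Rian lie below 0 in 3 of 3 HT mice and above 0 in 2 of 2 gg8 mice.

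The ratio of Malat1 to Neat1 within a library varied between groups. In HT mice it was 46.0, 46.8 and 67.4 in OSN and ran from 46.8 to 55.0 in mCherry-negative cells. MexHT OSN had 59.2 to 125.9, with a mean of 77.4 ± 26.1 (n = 6), and MexHT mCherry-negative cells 31.0 to 49.4, with a mean of 40.2 ± 6.7 (n = 5). All MexHT OSN libraries of gg8+OMP mice were above all their mCherry-negative libraries, while HT and MexHT OSN overlapped. In gg8 mice the ratio was 50.7 and 121.4 in OSN and 78.3 and 97.1 in mCherry-negative cells, so there the fractions overlapped. As the long Neat1 form holds the whole of the short one, the tables cannot tell which form changed.

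**Figure D5:**
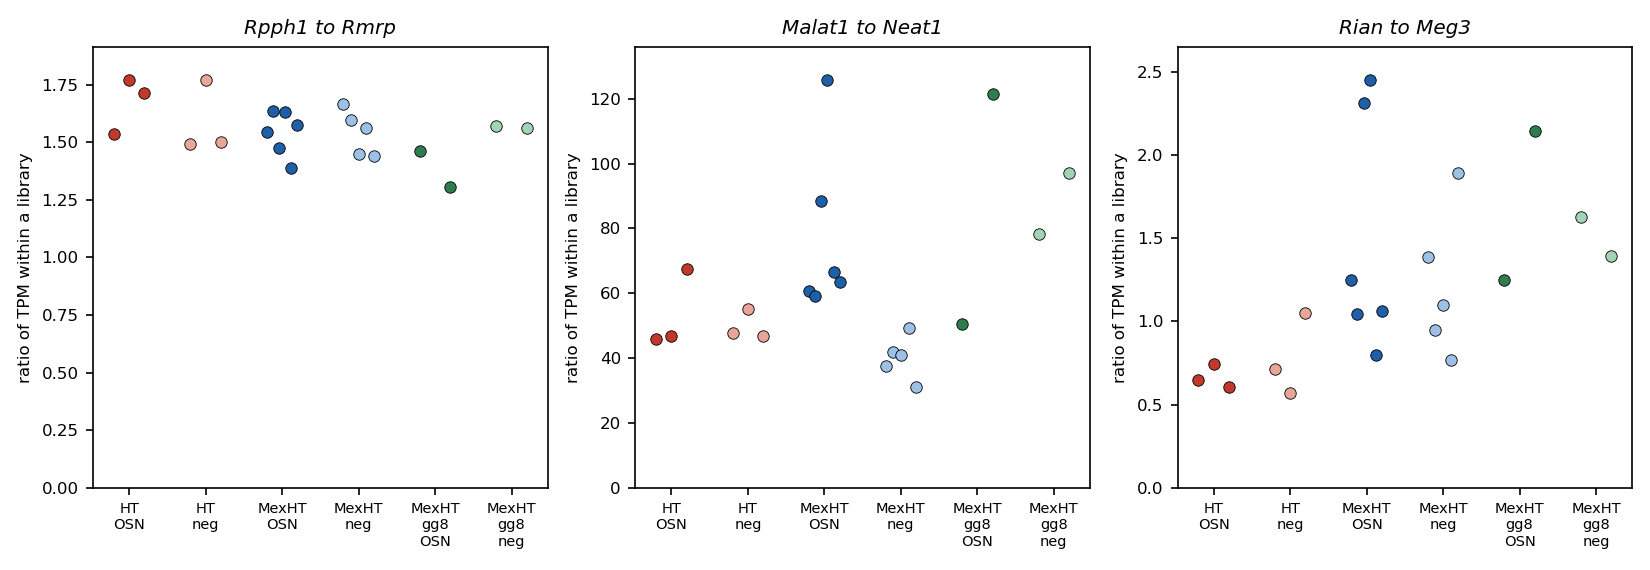
Ratios of TPM within each library for Rpph1 to Rmrp, Malat1 to Neat1 and Rian to Meg3 (points, linear axes from 0), by group. Rpph1 to Rmrp stays between 1.31 and 1.77 in all libraries. Malat1 to Neat1 separates MexHT OSN from MexHT mCherry-negative cells in gg8+OMP mice, while the gg8 fractions overlap. Rian to Meg3 is higher in MexHT OSN than in HT OSN by a small gap, with only 7 to 17 counts of Rian in HT OSN.

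Genes around them were read from lists. Of 20 paraspeckle protein genes, 6 were higher and 0 lower in MexHT OSN than in HT OSN, beside 19.9% and 16.8% of all genes. The other 14 did not pass, and the list's median was 0.16 against 0.03 over all genes tested. Pspc1, a core paraspeckle protein, had 117.5 ± 12.2 TPM in HT OSN and 202.9 ± 8.9 TPM in MexHT OSN (log2 difference 0.79, limma adjusted p 0.000303), and Ss18l1 rose by 1.09 (0.000428). Against mCherry-negative cells of MexHT mice 10 of 20 were higher and 0 lower, beside 35.8% and 27.6% of all genes, again with Ss18l1 (1.42) and Pspc1 (0.79) first, but with median-of-ratios scaling 6 were higher and 3 lower. Of 20 nuclear speckle genes, 2 were higher (Rnps1 and Srsf11) and 1 lower (Srsf6, by 0.41) in MexHT OSN, both shares below those of all genes. Among 5 protein-coding neighbours of both RNAs, 3 were higher and 1 lower in MexHT OSN, beside 19.9% and 16.8% of all genes. With median-of-ratios scaling 2 were higher and 1 lower. Frmd8 (0.95) and Tigd3 (0.71) were first among the higher ones (limma adjusted p 0.0165 and 0.0132). Slc25a45 fell by 1.70 on the log2 scale (limma adjusted p 0.0197), from a widely spread 10.1 ± 10.2 TPM in HT OSN to 1.70 ± 0.77 TPM.

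By likeness over the 17 gg8+OMP libraries, Malat1 and Neat1 correlated at 0.844. The genes closest to Malat1 were Aebp2 (r 0.947), Atf6 (0.943) and Brdt (0.940), and those closest to Neat1 were Nedd4l (0.917), Padi2 (0.914) and Crym (0.905). Malat1 ran opposite to Rmrp, at -0.802. Groups and mice are shared by these points, and the values are descriptions.

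Meg3 and Rian lie on the plus strand of chromosome 12, at chr12:109540996-109571729 and chr12:109603945-109661716, 32.2 kb apart (RefSeq, GRCm38.p6). The Meg3 promoter is shown because both RNAs belong to 1 imprinted region and were called in the same direction in both comparisons that called them. The 300 bases of RefSeq (chr12:109540746-109541045) hold TGACGT, the core of the cyclic AMP response element, once on each strand. The matches start 57 and 55 bases before the start site and overlap as a palindrome, in capitals:
Meg3: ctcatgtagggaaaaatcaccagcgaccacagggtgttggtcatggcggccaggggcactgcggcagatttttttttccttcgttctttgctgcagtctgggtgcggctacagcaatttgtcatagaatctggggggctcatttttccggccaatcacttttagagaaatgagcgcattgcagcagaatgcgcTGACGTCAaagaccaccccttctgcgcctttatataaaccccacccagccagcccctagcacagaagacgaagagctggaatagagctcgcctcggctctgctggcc
The letters TGACGT occur on either strand in 7.51% of the 32851 promoters of that table. The window of a second Meg3 start and that of Rian hold no match, and that of Malat1 (chr19:5802623-5802922) holds 2 that do not overlap. Neat1, Rpph1, Rmrp and Rn45s are not in the promoter table.

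Rian had 0.550, 1.35 and 1.20 TPM in HT OSN, from 7, 17 and 12 counts. In MexHT OSN it ran from 1.76 over a median of 6.28 to 6.60 TPM, and 5 of the 6 libraries had 40 counts or more. The lowest MexHT OSN library exceeded the highest of HT OSN. Rian rose by 1.56 on the log2(TPM + 1) scale (SE 0.35, limma adjusted p 0.00672). The size depends on the pseudocount, being 2.20 with 0.1 TPM and 0.74 with 5 TPM. The call was lost with the Xist covariate, which largely follows the construct (1.41, limma adjusted p 0.235). It held without any single library (adjusted p 0.000721 to 0.0370).

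Meg3 had 0.847, 1.82 and 1.99 TPM in HT OSN and 2.21 to 6.12 TPM in MexHT OSN, with a median of 3.32. The groups did not overlap, and the rise of 0.87 (SE 0.31, limma adjusted p 0.0459) was close to the threshold. The call held in 1 of 9 fits that left out a library, the one without MexHT OSN replicate 5, and the adjusted p ran from 0.0266 to 0.191.

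HT OSN had the lowest mean of the 6 groups for both RNAs. In HT mCherry-negative cells Meg3 had 6.02, 5.21 and 4.42 TPM and Rian 4.30, 2.96 and 4.65 TPM, all above every HT OSN library. Meg3 fell by 1.31 (SE 0.30, limma adjusted p 0.0377) and Rian by 1.30 (SE 0.31, limma adjusted p 0.0424) in HT OSN against these cells, and both were lower in 3 of 3 HT mice. They were the 2 RNAs of 7 whose groups did not overlap there, where 41% of genes did not, 18% on the lower side. Each call held in 1 of 6 fits that left out a library, the one without HT mCherry-negative replicate 2 (adjusted p up to 0.149 for Meg3 and 0.154 for Rian). Markers of connective tissue and vessels (6 genes) summed to 118.2 to 356.0 TPM against 8891 to 21234 TPM in these control cells, and their part in the difference was not tested.

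In MexHT mCherry-negative cells Meg3 had 3.81, 1.85, 4.64, 6.63 and 1.74 TPM and Rian 5.29, 1.75, 5.09, 5.11 and 3.29 TPM. The range of Meg3 took in that of MexHT OSN, and Rian was above it in 4 of 6 MexHT OSN libraries. Neither RNA was called in MexHT mice (0.06 and 0.28, limma adjusted p 0.868 and 0.456). The difference between constructs differed between fractions for Rian (1.57, SE 0.48, limma adjusted p 0.0429) and not past the threshold for Meg3 (1.37, SE 0.48, limma adjusted p 0.0688). The call of Rian held in 3 of 17 fits that left out a library (MexHT mCherry-negative replicate 1 or 3 or MexHT OSN replicate 5), with values from 1.36 to 1.79 and adjusted p from 0.00789 to 0.111.

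The highest library of both RNAs was OSN of gg8 mouse 1, from cells labelled immature OSN. Meg3 in OSN of gg8 mouse 2 (3.77 TPM) was below every HT mCherry-negative library (4.42 to 6.02 TPM). Within gg8 mice Meg3 had 20.9 and 3.77 TPM in OSN against 1.81 and 2.06 TPM in mCherry-negative cells. Rian had 26.2 and 8.08 TPM against 2.96 and 2.87 TPM. Both OSN libraries were above both mCherry-negative libraries, where 63.6% of genes did not overlap, 33.5% on the higher side. With 2 mice the differences of 1.80 and 2.01 were not called (limma adjusted p 0.172 and 0.102). These libraries had 989 to 1834 TPM of mature OSN markers in OSN and 11214 to 19303 TPM in mCherry-negative cells. The part of these cells was not tested. Xist had 0.44 and 159.4 TPM in OSN of gg8 mice 1 and 2 and 0.14 and 21.4 TPM in their mCherry-negative cells. Its part was not tested either. The gg8 libraries carry another date in their names than the gg8+OMP libraries, so driver and date cannot be told apart, and levels across both tables were not compared by a test.

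The 2 RNAs did not move in step everywhere. The ratio of Rian to Meg3 was 0.603 to 0.741 in HT OSN and 0.798 to 2.45 in MexHT OSN, with no overlap. In HT OSN it rests on only 7 to 17 counts of Rian, and the small gap between both ranges was not tested. MexHT mCherry-negative cells had ratios of 0.770 to 1.89. Their correlation over 17 libraries was 0.746, and the closest other genes were Dll1 (r 0.725), Eps8l3 (0.717) and Nrip3 (0.688) for Meg3 and Epha1 (0.947), Aifm1 (0.882) and Cntfr (0.875) for Rian. Rian also tracked Rmrp, at 0.823. At these counts a weak correlation says little.

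The other genes of the region gave little to set beside them. Of 7 on the list 6 were in the gg8+OMP table, and 2 were tested between MexHT OSN and HT OSN with 0 called. Begain was the 1 called in any comparison, higher in MexHT OSN (6.81 ± 3.32 TPM) than in MexHT mCherry-negative cells (2.46 ± 0.67 TPM; log2 difference 1.05, limma adjusted p 0.0136). RefSeq places 14 small RNA entries inside Rian, 10 of them in the gg8+OMP table, and none had over 2 counts in a library. Of 22 other long noncoding RNAs tested between MexHT OSN and HT OSN 3 were higher and 0 lower, below the 19.9% and 16.8% of all genes, among them the imprinted Peg13 (64.9 ± 10.7 against 142.9 ± 32.0 TPM, log2 difference 1.11, limma adjusted p 0.00190) and Snhg14 (0.88, 0.0277). H19, an imprinted RNA of growing tissue, fell in OSN against mCherry-negative cells: it fell by 4.14, dropped by 4.71 and decreased by 4.55 on the log2 scale in MexHT, HT and gg8 mice (limma adjusted p 4.56e-06, 0.00392 and 0.0153).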

How the data were processed

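Libraries of 10 ng total RNA were made with a stranded SMARTer kit for total RNA, per the labels' protocols. The build mm10 and FastQC, cutadapt, STAR and bedtools are named, per the submitters' processing notes. Counting program, annotation and strand setting are not given in the sources used here. The authors deposited TPM tables, 1 per driver, each summing to 1000000 per library. Whole reads were recovered from the TPM steps for 23614 of 23614 genes (gg8+OMP) and 22789 of 22809 (gg8), and 27 symbols turned into dates were left out of each table. limma 3.58.1 (R 4.3.3, mean trend) was fitted on log2(TPM + 1), keeping genes that averaged 1 TPM or more across the compared groups, with Benjamini-Hochberg adjustment over all genes. It was tested on simulated data: with 100 genes changed 2-fold and 100 changed 4-fold, 52 and 98 were called for MexHT OSN against HT OSN. For OSN against mCherry-negative cells 75 and 100 were called in MexHT mice and 23 and 100 in HT mice. The simulation gave all genes the same dispersion and changed far fewer genes than were called in the data. The summed shares and the ratios were not tested. p-values measure the spread between libraries. Alternatives were other pseudocounts, filters and scalings, voom on recovered counts, 1 fit of all groups, an Xist covariate, a replicate block and leaving out each library.

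The labels say that a control comes from the same mouse as the OSN of its number, so numbers pair fractions within a construct; deviations from the group means correlated at -0.109 to 0.421 in MexHT, 0.174 to 0.475 in HT and 0.0178 in gg8 mice. Across constructs the mCherry-negative libraries of a number also deviated together (0.231 to 0.418), which the OSN libraries did not all do. Named were the 7 RNAs, for each the 3 genes of highest Pearson correlation, and from each gene list at most the 2 called genes of largest change in each direction. The 7 RNAs and the lists were chosen with earlier results of these data known. Python 3.11.15, numpy 2.4.6, pandas 2.3.3 and matplotlib 3.10.9 were used.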

Additional observations from a re-analysis of the deposited data

Results flagged for a closer look

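Rpph1 and Rmrp each had 1 library far from the others in MexHT mCherry-negative cells. Replicate 1 was at 10829 TPM of Rpph1, and its gap to the next library was 0.871 of the group's range. The same library was at 6497 TPM of Rmrp, with a gap of 0.768 of the range. Examined were 14 sets of libraries, the 7 RNAs each in MexHT OSN and in MexHT mCherry-negative cells. Chance alone marks about 1 in 20, but these sets are not independent. Both flags fell on the same library, and Rpph1 and Rmrp correlated at 0.947 over 17 libraries.

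The construct difference in OSN was not that in mCherry-negative cells for Neat1, where the interaction was -1.54 (limma adjusted p 0.0417), nor for Rian, where it was 1.57 (limma adjusted p 0.0429). Neat1 was lower in OSN in every MexHT gg8+OMP mouse and higher in both gg8 mice, and the means over mice lay 1.74 apart on the log2 scale; that difference was not tested, since the tables were scaled separately.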

How the results depend on the processing

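Of 802 values of the 7 RNAs under alternatives, 701 kept direction and side of the threshold, 71 lost and 6 gained a call, and 24 changed sign. None of the sign changes was called. For Rian in MexHT against HT mCherry-negative cells the sign changed with pseudocount 5 (0.0081), median-of-ratios scaling (0.014), scaling without the 100 highest genes (0.0061), voom (0.023) and the Xist covariate (0.35). In MexHT OSN against mCherry-negative cells median-of-ratios scaling gave Rpph1 -0.034, Rmrp -0.033 and Meg3 -0.044, and voom gave Meg3 -0.0022. Leaving out 1 library crossed 0 in 8 cases. Between constructs, Rn45s in OSN ran from -0.022 to 0.15, and in mCherry-negative cells Neat1 ran from -0.34 to 0.0011 and Rian from -0.17 to 0.20. Between fractions, Meg3 ran from -0.11 to 0.26 in MexHT mice and Rn45s from -0.15 to 0.029 in HT mice. In gg8 mice Rmrp ran from -0.42 to 0.098, Rn45s from -0.61 to 0.053 and Neat1 from -0.26 to 1.43.

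Between MexHT and HT OSN, 3 of the 7 were called with pseudocount 5 and with no filter, beside 5846 of 16067 and 6247 of 23390 genes. The 5 TPM filter, which drops Meg3 and Rian, also left 3 called, beside 5316 of 12487 genes. With the Xist covariate 0 were called, beside 329 of 16067 genes. In mCherry-negative cells 1 gene was called with no filter and 24 in 1 fit of all groups. MexHT OSN against mCherry-negative cells gave 2 of the 7 with voom, beside 9990 of 16522 genes. In HT mice 1 was called with pseudocount 0.1 and 0 with no filter, beside 1880 of 17027 and 1583 of 23282 genes. The 5 TPM filter, which drops Meg3 and Rian there too, left 0, beside 1690 of 13329 genes, and voom called 1055 genes. In gg8 mice 646 genes were called with pseudocount 0.1 and 820 with the 5 TPM filter. The interaction gave 1 of the 7 with pseudocount 5, median-of-ratios scaling or voom, beside 2006, 1773 and 1794 of 16785 genes. It gave 0 with no filter, beside 1946 of 23587 genes. With the 5 TPM filter, which again drops Meg3 and Rian, 1 was called, beside 2107 of 13338 genes. Median-of-ratios scaling turned the split of the interaction from 1184 higher and 902 lower into 716 and 1057. The causes were not tested.

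With the replicate block 3 of the 7 and 4801 genes were called between MexHT and HT OSN, where libraries of one number correlated at -0.228 to 0.132 and share only the number. Rmrp and Meg3 had adjusted p 0.0538 and 0.0704 in that limma fit. The block called 4967 genes in HT mice. In the other comparisons it left the counts within 1.5 times and changed no other call of the 7 beyond Neat1 in HT mice.

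Leaving out 1 library at a time called 3 to 6 of the 7 and 3745 to 6506 genes between MexHT and HT OSN, 0 to 0 and 0 to 4 in mCherry-negative cells, 1 to 2 and 9623 to 10713 in MexHT mice, 0 to 2 and 660 to 4183 in HT mice, 0 to 0 and 0 to 3703 in gg8 mice, and 0 to 3 and 1195 to 2483 in the interaction. Fits with 1 library left in a gg8 group assume that it varies like the other group. The summed share stayed at 2.11% to 2.24% and 2.15% to 2.29% (HT OSN and mCherry-negative), 2.28% to 2.42% and 2.36% to 2.43% (MexHT), and 1.64% to 2.34% and 2.09% to 2.37% (gg8). Meg3 and Rian rest on few counts, 39 and 7 at the lowest.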
